A study of Mus musculus with 6 samples.

Results

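The genes described here encode ligands and receptors of the epidermal growth factor (EGF) family, with the protease that releases the ligands and a feedback inhibitor of the receptors. They were chosen by symbol, and 9 of the 10 named genes had a row among the 57180 of the count table, namely the receptors Egfr, Erbb2 and Erbb3, the ligands Hbegf, Areg, Ereg and Tgfa, the sheddase Adam17 and the inhibitor Errfi1. Nrg1 was not analysed here. The RNA sequencing libraries came from mouse 10T1/2 cells, a fibroblast line of mesenchymal origin, 3 of them after photodynamic therapy (PDT) and 3 after PBS. In PDT a light-excited dye yields reactive oxygen species, and the dye was chlorin e6 carried by midkine-directed extracellular vesicles (Ce6@D4-EV). All cells of both groups had been activated with TGF-β at 5 ng/mL as a model of cancer-associated fibroblasts. No library lacked TGF-β, so the effect of TGF-β itself cannot be read here. The vesicles, dye and light were given together. The samples are described as biological replicates, but separate cultures are not, so the p-values reflect only how far these samples spread, which may be technical.

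EGF family ligands are made as membrane-anchored precursors, and proteases of the ADAM type cut them at the cell surface. The released ligand binds a receptor tyrosine kinase of the ErbB family, the receptors pair, and the signal passes through RAS, RAF and MEK to the kinase ERK. ERBB2 has no known ligand of its own and serves as a partner, ERBB3 has a weak kinase, and both the ligand genes and the inhibitor gene Errfi1 are themselves induced by the pathway. In fibroblasts EGF receptor signalling is best known for driving proliferation and migration.

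Totals ran from 83195529 to 99527847 counts per library, and 3 counts, the limit that a count of 0 allows, came to 0.0298 to 0.0368 CPM (counting error only). On the first principal component PDT replicate 3 lay closer to the PBS libraries (23.7) than the other PDT libraries did (39.9 and 38.9, against -35.9 to -32.9 for PBS). Of 12 fibroblast markers 8 had at least 1 CPM in every library, but Fap had 0 counts in all. The epithelial markers Epcam, Cldn4 and Esrp1 and the leukocyte markers Ptprc, Adgre1 and Cd3e also had 0 counts throughout, while the macrophage marker Cd68 had 1.44 ± 0.06 CPM in PDT and 0.86 ± 0.04 CPM in PBS (SD, n = 3 each). The 9 epithelial markers summed to 0.566 to 0.579 CPM in PDT and 0.698 to 1.31 CPM in PBS, and the 7 leukocyte markers to 1.98 to 2.42 CPM in PDT and 1.34 to 1.44 CPM in PBS. The 12 fibroblast markers summed to 14164 to 14844 CPM in PDT and 22433 to 23325 CPM in PBS. Col1a1 and Col1a2 made up most of that difference, and Col6a1 and Dcn had higher means in PDT (1363 ± 21.9 and 1.31 ± 0.37 CPM) than in PBS (1199 ± 65.1 and 0.60 ± 0.25 CPM). With libraries that overlapped, the means of S100a4, Lum and Thy1 were also higher in PDT (954 ± 82.5, 0.50 ± 0.22 and 0.31 ± 0.19 CPM). In PBS they were 883 ± 76.5, 0.38 ± 0.20 and 0.30 ± 0.18 CPM. The 6 myofibroblast markers summed to 4887 to 5149 CPM in PDT and 7950 to 8619 CPM in PBS. Postn and Acta2 made up most of that difference, and Tpm2 had a higher mean in PDT (253 ± 2.45 CPM) than in PBS (248 ± 7.40 CPM). The 6 endothelial markers summed to 0.626 to 0.913 CPM in PDT and 0.760 to 1.52 CPM in PBS, with Kdr and Emcn at 0. Tek had a lower mean in PDT (0.24 ± 0.05 CPM) than in PBS (0.66 ± 0.33 CPM). Vwf and Pecam1 had higher means in PDT (0.49 ± 0.13 and 0.09 ± 0.03 CPM) than in PBS (0.32 ± 0.11 and 0.04 ± 0.04 CPM). Any part of these differences in the results was not tested. In bulk samples fewer cells of a type and less RNA per cell cannot be told apart.

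Of the 9 genes, Errfi1 and Adam17 rose in PDT, none fell, and 7 did not pass the test. The changes that passed were small, 1.32-fold for Errfi1 and 1.12-fold for Adam17. Over all 17635 tested genes 36.1% passed the same test (edgeR's quasi-likelihood test with Benjamini-Hochberg adjustment, threshold 0.05), 18.7% higher and 17.5% lower in PDT, and the 2 of 9 EGF family genes are read against these shares. Scaling by library size alone put 4290 genes higher and 2516 lower, in place of 3294 and 3078. None fell at an unadjusted p under 0.05 either, nor by DESeq2 or limma-voom. The other fitted fold changes of the family are given with their 95% intervals, since a missed threshold does not show that levels were equal.

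**Figure D1:**
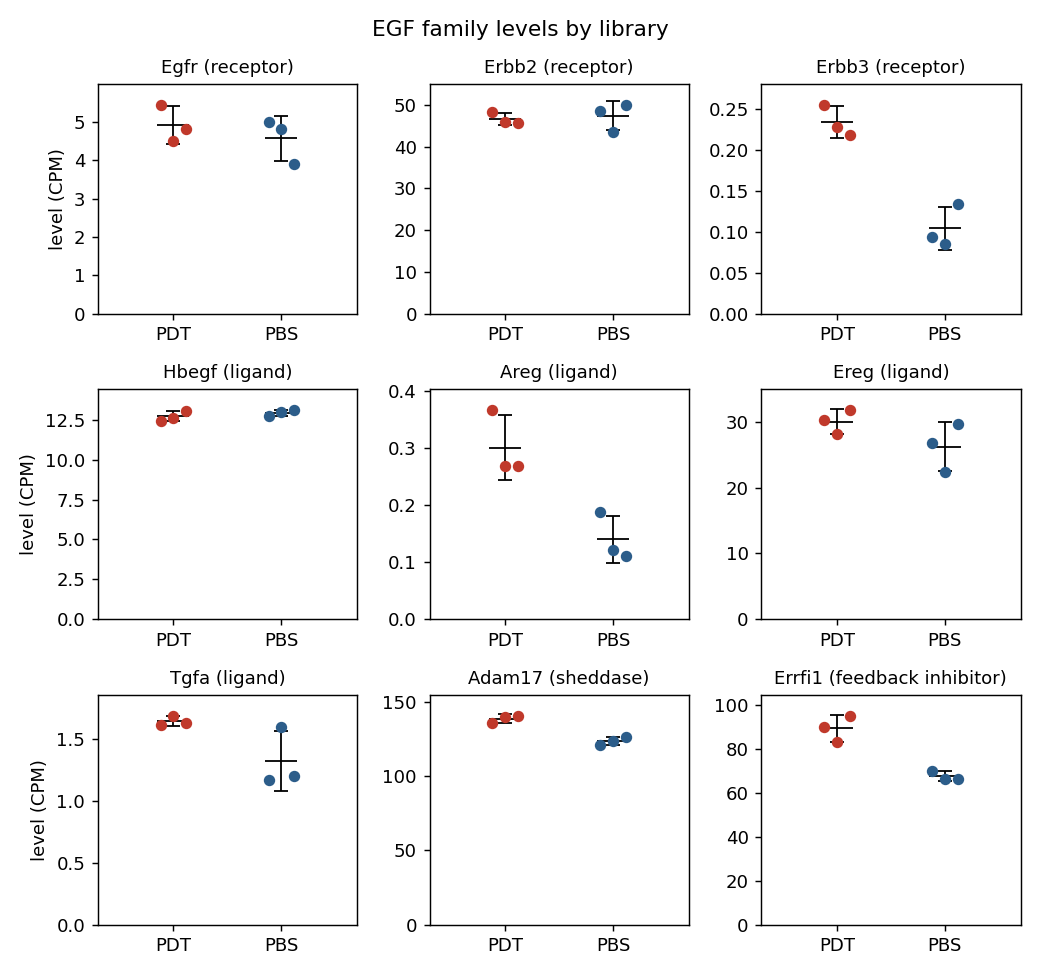
Levels of the 9 EGF family genes in each library (CPM with TMM-scaled library sizes, linear axes from 0), PDT at the left and PBS at the right of each panel, with the mean and SD over 3 libraries. The PDT libraries lie above all PBS libraries for Errfi1, Adam17, Tgfa, Areg and Erbb3, and the groups overlap for Egfr, Erbb2, Hbegf and Ereg. Of all tested genes 49.0% had groups that did not overlap, and 25.6% did so with PDT higher. Areg and Erbb3 would not have entered the test on the PBS libraries alone, so their separation is partly fixed by the filter.

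Errfi1 encodes MIG6, which binds the kinase domain of EGF receptor family members and inhibits it. Its level was 90.2, 83.2 and 95.3 CPM in the PDT libraries, against 70.2, 66.2 and 66.5 CPM in the PBS libraries. Every PDT library lay above every PBS library. The log2 fold change was 0.40 ± 0.05 (SE, adjusted p = 0.000345 by edgeR's quasi-likelihood test with Benjamini-Hochberg adjustment), and means were 89.5 ± 6.09 CPM in PDT and 67.6 ± 2.24 CPM in PBS (SD, n = 3 each).

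Adam17 encodes the protease, also called TACE, that sheds amphiregulin, epiregulin, HB-EGF and TGF-α from the cell surface. Its level was 136, 139.8 and 141 CPM in PDT, against 121, 123 and 126 CPM in PBS. The groups did not overlap, and the log2 fold change was 0.17 ± 0.04 (edgeR adjusted p = 0.0057). On the reference annotation, Adam17 shares exon bases with Iah1 on the opposite strand, and Iah1 was also higher, with 26.2 ± 1.09 CPM in PDT and 19.2 ± 1.21 CPM in PBS (SD, n = 3 each; edgeR adjusted p = 0.000544). The use of strand in counting is not given in the sources used here, so reads of the 2 genes cannot be told apart where they overlap.

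The upstream sequences of these 2 genes are shown with that of the ligand gene Areg, a scarce transcript that did not pass the test. Areg was picked for its fitted fold change, the highest among the ligands, and the low-count filter partly fixes that value. RefSeq promoter entries (GRCm38.p6, an earlier build than the GRCm39 of the counts) matched 6 of the 9 genes, with 7 promoters in all, and the 250 bases before the start site are printed, 5′ to 3′ on the gene's strand. Capitals mark matches on either strand to the GC box (GGGCGG), to the short site of the cyclic AMP response element, CRE (TGACG), and to the AP-1 motif (TGANTCA). Where a short site and its reverse complement overlap they form the full CRE (TGACGTCA).
Errfi1, chr4:150854820-150855069, plus strand: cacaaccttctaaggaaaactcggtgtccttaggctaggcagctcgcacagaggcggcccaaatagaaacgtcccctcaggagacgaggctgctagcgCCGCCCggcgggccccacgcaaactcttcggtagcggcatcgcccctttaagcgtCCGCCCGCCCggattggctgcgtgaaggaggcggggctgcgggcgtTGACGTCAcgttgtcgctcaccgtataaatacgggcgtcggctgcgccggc
Areg, chr5:91139349-91139598, plus strand: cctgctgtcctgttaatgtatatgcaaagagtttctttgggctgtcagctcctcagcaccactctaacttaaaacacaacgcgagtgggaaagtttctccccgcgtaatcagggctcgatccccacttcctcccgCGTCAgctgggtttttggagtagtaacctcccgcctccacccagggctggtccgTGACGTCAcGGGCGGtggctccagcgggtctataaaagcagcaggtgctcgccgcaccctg
Adam17, chr12:21373633-21373882, minus strand: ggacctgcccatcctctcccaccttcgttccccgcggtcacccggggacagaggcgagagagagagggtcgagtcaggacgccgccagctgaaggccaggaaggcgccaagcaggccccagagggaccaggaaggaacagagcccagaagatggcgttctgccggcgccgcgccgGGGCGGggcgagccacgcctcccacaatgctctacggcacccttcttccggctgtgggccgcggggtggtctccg

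The full CRE starts 51 bases before the start site of Errfi1 and 61 bases before that of Areg. It was in 2 of the 7 promoters and in 1.55% of all 32851 promoters of the same length, and it was looked for after the sequences had been read. Areg did not pass the test, and a link of the motif to the fold changes was not tested. GC boxes numbered 3 for Errfi1, 1 for Areg and 1 for Adam17, and 32.7% of all promoters held at least 1. Tgfa had 2 and Egfr had 1, and neither gene passed the test. The short site was in promoters of Errfi1, Areg and Erbb2, the last of which did not pass the test. It was in 17.8% and the AP-1 motif in 6.75% of all promoters. No AP-1 match lay in the 7 promoters, which says only that these letters are not in these windows. The other Errfi1 promoter, which starts further upstream, held no match to any of these motifs.

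Among the ligands, Hbegf, which encodes heparin-binding EGF-like growth factor, did not pass the test. It had 12.5, 12.6 and 13.1 CPM in PDT, against 12.7, 12.98 and 13.1 CPM in PBS. The libraries of both groups were interleaved, and the log2 fold change was -0.02 ± 0.06 with a 95% interval of -0.16 to 0.11 (edgeR adjusted p = 0.79). Scaling by library size only moved the median of all genes by 0.049, and with it this value to 0.024.

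Ereg encodes epiregulin, and had the highest mean level of the 4 ligand genes per transcript length. It had 30.3, 28.1 and 31.8 CPM in PDT, against 26.8, 22.3 and 29.7 CPM in PBS. The highest PBS library lay above the lowest PDT library, and the log2 fold change of 0.20 ± 0.10 did not pass the test (95% interval -0.02 to 0.41, edgeR adjusted p = 0.142). Ereg shares exon bases with Gm19610 on the opposite strand, which had 0.58 ± 0.06 CPM in PDT and 0.65 ± 0.15 CPM in PBS (SD, n = 3 each). The Ereg call changed with offsets for transcript length and GC content (0.47, edgeR adjusted p = 0.00112) and without PBS replicate 3 (0.29, edgeR adjusted p = 0.0446), and the value was 0.091 without PBS replicate 2 (edgeR adjusted p = 0.413).

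Tgfa encodes TGF-α, a ligand of EGFR alone among the receptors. It had 1.61, 1.69 and 1.63 CPM in PDT, against 1.17, 1.60 and 1.20 CPM in PBS. The PDT libraries lay close together and just above PBS replicate 2, while the other PBS libraries were lower. The log2 fold change of 0.31 ± 0.18 did not pass the test (95% interval -0.08 to 0.71, edgeR adjusted p = 0.203), and the value was 0.47 without PBS replicate 2 (edgeR adjusted p = 0.0779).

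Areg encodes amphiregulin, a ligand of EGFR, and its transcript was scarce. The PDT libraries held 33, 27 and 27 counts and the PBS libraries held 16, 10 and 9, which summed to 87 (exact Poisson 95% interval 69.7 to 107, counting error only) in PDT and 35 (24.4 to 48.7) in PBS. Levels were 0.30 ± 0.06 CPM in PDT and 0.14 ± 0.04 CPM in PBS (SD, n = 3 each). The groups did not overlap, and the fitted log2 fold change was 1.09 ± 0.40 (edgeR adjusted p = 0.0593, unadjusted p = 0.0224). Areg and the receptor gene Erbb3 would not have entered the test on the PBS libraries alone. All 3 PDT libraries exceeded the low-count limit for both genes, while 2 PBS libraries did so for Areg and 1 for Erbb3, so a difference in this direction is partly fixed by the filter.

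The receptor gene Erbb3, whose product pairs with ERBB2 and binds neuregulins, held 23, 23 and 22 counts in PDT, against 8, 7 and 11 counts in PBS. The sums were 68 (exact Poisson 95% interval 52.8 to 86.2, counting error only) in PDT and 26 (17.0 to 38.1) in PBS. The groups did not overlap, and the fitted log2 fold change was 1.15 ± 0.43 (edgeR adjusted p = 0.0609, unadjusted p = 0.0231). Areg and Erbb3 were called with scaling by library size only (edgeR adjusted p = 0.048 and 0.049), and Erbb3 also by limma-voom (adjusted p = 0.0494). Of the 7 genes that exceeded the low-count limit in all PBS libraries too, 3 had groups whose CPM did not overlap, all higher in PDT, while 49.0% of all tested genes did so in either direction and 25.6% in that direction.

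Erbb2 had the highest level of the 3 receptor genes per transcript length. It had 48.4, 45.9 and 45.5 CPM in PDT, against 48.6, 43.5 and 50.1 CPM in PBS, and the PDT libraries lay within the range of the PBS libraries. The log2 fold change was -0.02 ± 0.06 with a 95% interval of -0.15 to 0.11 (edgeR adjusted p = 0.788), and it was 0.025 with scaling by library size only, which moved all genes alike, and 0.018 without PBS replicate 3. Erbb2 shares exon bases with Mien1 on the opposite strand, which had 34.5 ± 1.63 CPM in PDT and 28.6 ± 1.57 CPM in PBS (SD, n = 3 each; edgeR adjusted p = 0.00517).

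Egfr, the receptor that binds HB-EGF, amphiregulin, epiregulin and TGF-α, had 5.45, 4.49 and 4.82 CPM in PDT, against 4.99, 4.82 and 3.91 CPM in PBS. The groups overlapped, and the log2 fold change of 0.11 ± 0.13 did not pass the test (95% interval -0.18 to 0.39, edgeR adjusted p = 0.563). The value was 0.34 with length and GC offsets (edgeR adjusted p = 0.0762), 0.022 without PDT replicate 1, 0.17 without PBS replicate 1, 0.16 without PDT replicate 2 and 0.0053 without PBS replicate 3. Its opposite-strand gene Egfros held at most 7 counts in any library. Erbb4, the remaining receptor of the family, had 0 counts in all 6 libraries.

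**Figure D2:**
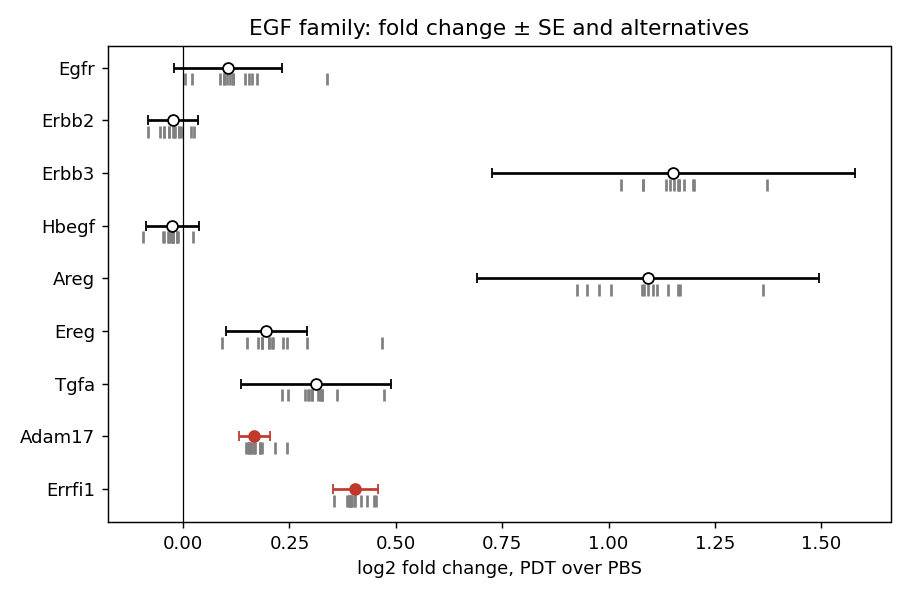
Log2 fold change of PDT over PBS ± SE for the 9 genes from the edgeR fit, with filled red points for genes that passed the test and open points for the others, and grey marks below each point for the alternative analyses. Errfi1 (0.40) and Adam17 (0.17) stay on the positive side in every alternative, and so do Egfr, Ereg, Tgfa, Areg and Erbb3 where tested. Erbb2 and Hbegf lie near 0, on either side of it across alternatives, and Erbb3 and Areg combine large values with wide errors.

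Levels were compared between genes as CPM per kilobase of the longest protein-coding transcript in the reference annotation, so the order depends on that choice of transcript (10208 nt for Egfr). In PDT the order was Adam17 (31.0 ± 0.63 CPM per kilobase), Errfi1 (29.4 ± 2.00), Erbb2 (9.30 ± 0.31), Ereg (7.28 ± 0.45), Hbegf (5.36 ± 0.13), Egfr (0.48 ± 0.05), Tgfa (0.36 ± 0.01), Areg (0.25 ± 0.05) and Erbb3 (0.039 ± 0.003) (SD, n = 3). The PBS libraries had the same order. Neighbours in the order whose libraries overlapped were Adam17 and Errfi1 in PDT, and Ereg and Hbegf in PBS. Egfr thus stood far below its partner Erbb2, at 0.45 against 9.45 CPM per kilobase in PBS, and its ligand genes Ereg and Hbegf also had higher levels than Egfr itself.

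**Figure D3:**
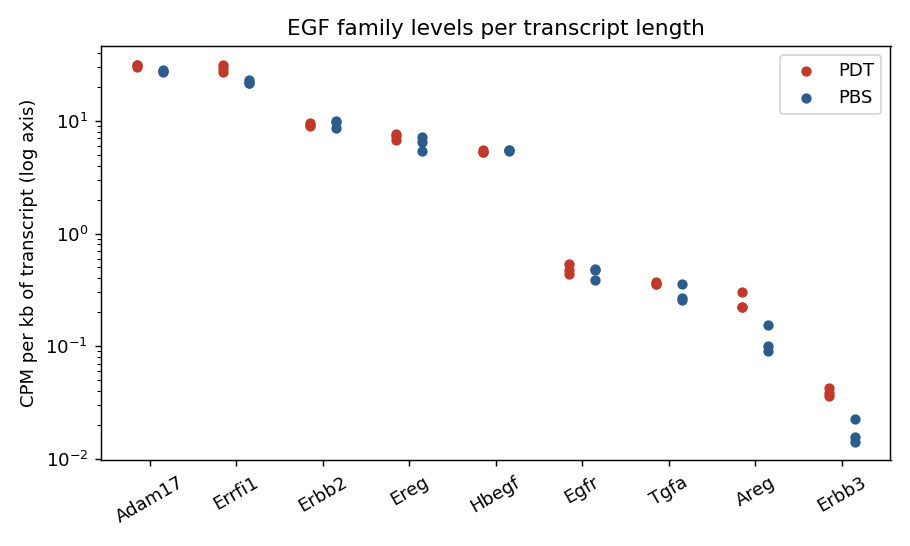
Level of each gene per transcript length in every library (CPM per kilobase, log axis), with PDT libraries in red to the left of PBS libraries in blue. Adam17 and Errfi1 lie above 20 CPM per kilobase, Erbb2, Ereg and Hbegf between 5 and 10, and Egfr, Tgfa, Areg and Erbb3 below 1.

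The genes whose pattern over the 6 libraries was nearest to that of a member were found from the root mean square difference of centred log2 CPM. For Egfr these were Vps33b, Nupl2 and Asic1, with differences of 0.062, 0.062 and 0.066. For Hbegf they were Scyl2, Pdha1 and Gkap1, with differences of 0.012, 0.014 and 0.015 and log2 fold changes of -0.021, -0.0018 and -0.041. Hbegf hardly varied, so by this measure other genes that hardly varied lie near it, and shared regulation was not tested.

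Among the other ligand genes of the family, 0 of 3 tested passed the test of edgeR or of DESeq2, and 1 had an unadjusted edgeR p under 0.05. Betacellulin (Btc) had 1.29 ± 0.04 CPM in PDT and 0.98 ± 0.09 CPM in PBS (SD, n = 3 each) without overlap between the groups (log2 fold change 0.41 ± 0.17, edgeR adjusted p = 0.0945, unadjusted p = 0.0406). Egf itself had 1.43 ± 0.33 CPM in PDT and 1.83 ± 0.59 CPM in PBS, and Nrg4 had 0.70 ± 0.13 CPM in PDT and 0.92 ± 0.21 CPM in PBS. Epgn, Nrg2 and Nrg3 were below the filter, with at most 15 counts in any library.

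Of 8 tested genes for other ADAM proteases and for the partners that carry ADAM17 to the surface, 1 rose and 2 fell, beside 18.7% of all tested genes higher and 17.5% lower, so this count is near the background. Adam12 fell by 0.35 ± 0.06 on the log2 scale, to 36.7 ± 1.38 CPM in PDT, against 46.9 ± 3.17 CPM in PBS (edgeR adjusted p = 0.00125). Adam15 rose by 0.20 ± 0.05 (edgeR adjusted p = 0.01). Adam10, which sheds betacellulin and EGF, fell by 0.11 ± 0.04 (edgeR adjusted p = 0.0414), a call that held in 6 of 14 alternatives. It ended without any 1 of the PBS libraries or of PDT replicates 1 and 2 (edgeR adjusted p = 0.0764 to 0.162), which left 1 gene lower, and its sign turned with length and GC offsets (0.059). Without PDT replicate 3 there were 2 genes higher. The iRhom gene Rhbdf1, whose product escorts ADAM17, had 61.8 ± 2.15 CPM in PDT and 63.1 ± 2.19 CPM in PBS and did not pass the test, and Rhbdf2 had at most 4 counts in any library.

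Genes of receptor turnover and receptor inhibition moved in both directions, with 2 of 13 tested higher and 6 lower. Of all tested genes 18.7% were higher and 17.5% lower. Lrig1, a transmembrane inhibitor that promotes receptor degradation, rose by 0.59 ± 0.06, to 85.3 ± 3.00 CPM in PDT, against 56.9 ± 4.65 CPM in PBS (edgeR adjusted p = 7.01e-05). Its relative Lrig3 fell by 0.43 ± 0.06 and the ubiquitin ligase gene Cblb fell by 0.38 ± 0.06 (edgeR adjusted p = 0.000714 and 0.00123). Socs4 fell by 0.46 ± 0.07 (edgeR adjusted p = 0.000834), and with length and GC offsets fell by 0.084, which did not pass (edgeR adjusted p = 0.189). With these offsets 2 genes of the list were lower in place of 6, and without PBS replicate 3 it was 3. Cblc, also on the list, was below the filter, with 0 counts in every library.

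The 23 signalling components between receptor and ERK had 7 members higher and 6 lower (18.7% and 17.5% of all tested genes), with a median log2 fold change of -0.01 beside 0.01 for all tested genes. The kinase gene Braf fell by 0.68 ± 0.07, to 41.1 ± 4.67 CPM in PDT, against 65.7 ± 1.67 CPM in PBS (edgeR adjusted p = 9.33e-05), and by 0.41 with length and GC offsets. The scaffold gene Ksr1 rose by 0.60 ± 0.07 (edgeR adjusted p = 0.000155). Map2k1, which encodes MEK1, fell by 0.31 ± 0.04 and the adaptor gene Gab1 fell by 0.43 ± 0.05 (edgeR adjusted p = 0.000229 and 0.000272). Adaptors that bind the receptors directly, Grb2 and Shc1, did not pass the test, with log2 fold changes of 0.07 ± 0.04 and -0.01 ± 0.04, and they were named after their values were seen.

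Of 10 genes often used as a transcript measure of ERK pathway activity, 6 rose, where 18.7% of all tested genes did, and the median log2 fold change was 0.29 beside 0.01 for all tested genes. Among the 12831 genes that averaged at least 1 CPM and reached 10 counts in 3 samples, 3002 rose and 3153 fell. This list and the others were written with earlier results of these data known. None fell in edgeR, at an unadjusted p under 0.05 or by DESeq2. The feedback phosphatase gene Dusp4 rose 1.87-fold, to 16.6 ± 0.59 CPM in PDT, against 8.84 ± 0.75 CPM in PBS (log2 fold change 0.91 ± 0.08, edgeR adjusted p = 2.45e-05). The Sprouty genes Spry2 and Spry4, which encode inhibitors of receptor tyrosine kinase signalling, rose by 0.63 ± 0.08 and 0.71 ± 0.12 (edgeR adjusted p = 0.000242 and 0.00131). Ccnd1, which encodes cyclin D1, rose by 0.47 ± 0.04, to 820.0 ± 13.4 CPM in PDT, against 592.8 ± 21.5 CPM in PBS (edgeR adjusted p = 1.6e-05). Phlda1, Epha2, Epha4 and Etv4 did not pass the test, with log2 fold changes of -0.13 to 0.09.

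The early genes that EGF induces within a short time in many cells had 5 of 20 members higher and 11 lower, beside 18.7% and 17.5% of all tested genes, and a median log2 fold change of -0.28 beside 0.01. Of the 12831 genes that averaged at least 1 CPM and reached 10 counts in 3 samples, 3002 rose and 3153 fell. The 19 early genes among them had 5 members higher and 10 lower. Egr1 fell 2.65-fold, to 29.0 ± 2.36 CPM in PDT, against 77.0 ± 5.54 CPM in PBS (log2 fold change -1.41 ± 0.07, edgeR adjusted p = 7.79e-07). Junb, an AP-1 subunit gene, fell by 0.73 ± 0.05, while Fosl1, which encodes the AP-1 subunit FRA1, rose by 0.75 ± 0.06 (edgeR adjusted p = 5.87e-06 and 1.56e-05). Maff, a small MAF factor gene, rose by 0.89 ± 0.06 (edgeR adjusted p = 3.64e-06). Fos, named after its values were seen, had the lowest log2 fold change of the list at -2.37 ± 0.22, with 0.39 ± 0.08 CPM in PDT and 2.02 ± 0.33 CPM in PBS (edgeR adjusted p = 4.23e-05). Whether ERK itself was more or less active was not measured.

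**Figure D4:**
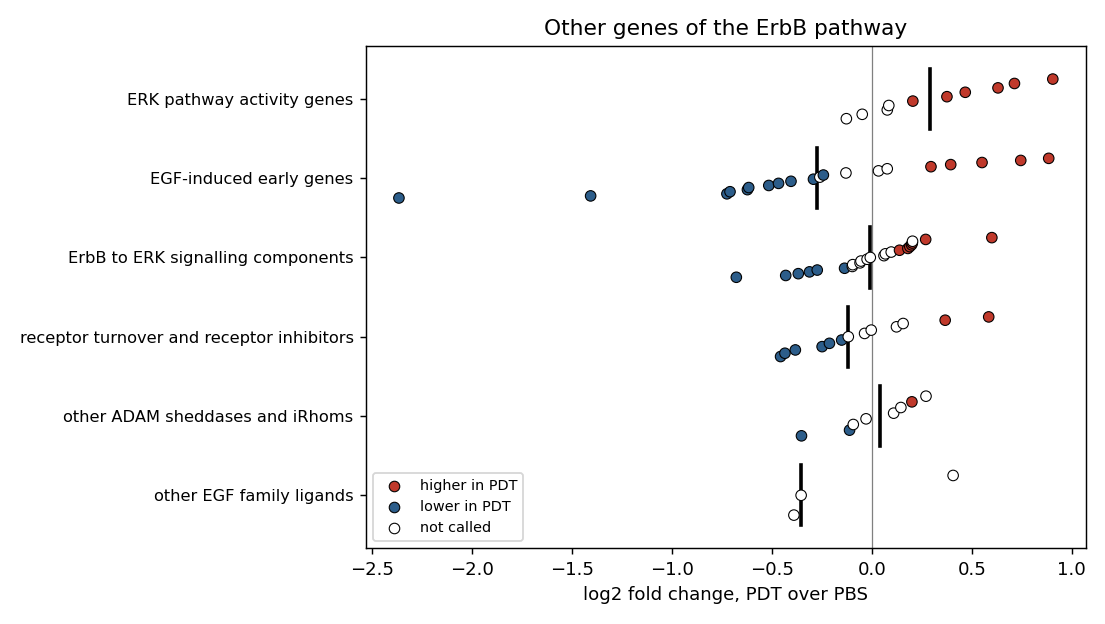
Log2 fold change of PDT over PBS for the tested genes of 6 ErbB pathway lists, 1 point per gene, red for genes higher in PDT, blue for genes lower in PDT and white for genes that did not pass the test, with a black bar at each list's median. The called ERK pathway activity genes all lie to the right of 0, and the early genes spread from -2.37 (Fos) to 0.89 (Maff).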

How the data were processed

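The authors deposited raw read counts, whole numbers without normalisation, with 1 row per gene symbol and 1 column per sample. STAR 2.7.11b, cutadapt 4.6 and the genome GRCm39 are named per the submitters' processing notes, without their settings. Per the labels' protocols, ribosomal RNA was depleted before preparation of directional libraries. Not given in the sources used here are the counter, its annotation, whether strand was used and how reads with several matches were handled. The table had 0 rows that named no gene.

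Groups follow the treatment in the labels and replicate numbers the sample titles. Genes were filtered with filterByExpr (minimum count 10), libraries were scaled with TMM, and PDT was compared with PBS by edgeR's quasi-likelihood test (version 4.0.16, R 4.3.3) with group as the only term and Benjamini-Hochberg adjustment over 17635 genes. SE is the size of the log2 fold change over the square root of F. For log2 CPM the prior count was 2. The common biological coefficient of variation was 10.0%. Libraries of a group differed by more than sampling noise (lowest chi-square 10.3 per degree of freedom). Alternatives used limma 3.58.1, DESeq2 1.42.0 and mgcv 1.9.3. The stricter filter kept genes that averaged 1 CPM or more and reached 10 counts in 3 samples. Lengths and GC content came from GENCODE M21, an earlier build used for gene properties only, and covered 92.7% of tested genes. Over those genes the main log2 fold changes had a Spearman correlation of 0.28 with GC content and -0.17 with length. The procedure was tried on simulated data, with larger changes than that of Adam17 and only in genes with more counts than Areg or Erbb3. That trial does not cover changes or counts as low as theirs. A leukocyte marker of the list is not reported here.

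The members and lists were chosen with earlier results of these data known. Named genes are all members, up to 4 called genes per list with the lowest adjusted p, genes below the filter, and for Egfr and Hbegf the 3 genes of nearest pattern that averaged 3 or more in log2 CPM and had an established symbol. Other genes are given where a sentence needs them.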

Additional observations from a re-analysis of the deposited data

How the results depend on the processing

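Errfi1 and Adam17 stayed higher in PDT and past the threshold in all 14 alternatives, at log2 fold changes of 0.35 to 0.45 and 0.15 to 0.24, and all genes called numbered 4755 to 6877 against 6372. With library size only, 4 members were called, all higher, since Erbb3 (1.20) and Areg (1.14) passed, and Erbb2 (0.025) and Hbegf (0.024) turned positive without passing, as this scaling moved the median gene by 0.049. Of the other ADAM and iRhom genes, 3 were then higher and 1 lower. Limma-voom also called Erbb3 (1.13). Without the low-count filter 1 ADAM or iRhom gene and 3 receptor turnover genes were lower, and DESeq2 called 2 ADAM or iRhom genes higher. Length and GC offsets called Ereg (0.47), 1 further ligand gene higher, 2 ADAM or iRhom genes higher and 1 lower, and 2 turnover genes lower. Erbb3 and Areg did not pass the stricter filter.

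Leaving out 1 library at a time gave log2 fold changes of -0.081 to 0.018 for Erbb2 and 0.091 to 0.29 for Ereg, 2 to 3 members called, 1 to 2 ADAM or iRhom genes higher and 1 to 3 lower, and 3 to 7 turnover genes lower. The replicate numbers did not pair the libraries (correlations of deviations -0.012, 0.014 and 0.0047 for numbers 1, 2 and 3). With the number as a replicate block 6067 genes were called, Ereg passed (0.20, edgeR adjusted p = 0.0391) and 2 ADAM or iRhom genes were higher. The cause of these shifts was not tested. At 7 to 33 counts per library, depth limits what Erbb3 and Areg can show.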
